A study of Mus musculus with 6 samples.

Results

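The genes described here encode the enzymes of cholesterol and fatty acid synthesis, the proteins that control them and the genes of cholesterol export, followed across primary mouse adipose-derived stromal cells (ADSCs), fibroblast-like cells isolated from fat. The set was chosen by gene name, 35 genes in all, with earlier results of these data known, and each of the 35 was found among the 22186 genes of the deposited table. Messenger RNA was sequenced from wild-type ADSCs kept for 48 h together with Treg, the regulatory T cells that restrain immune responses (Treg co-culture, n = 3), and from wild-type ADSCs labelled as control (n = 3). The labels give no sex, age or strain of the mice, no source or number of the Treg and no co-culture with another cell type, so an effect of Treg cannot be told apart from that of co-culture as such. They also do not say whether libraries of a group came from separate animals or cultures, and the p-values then reflect only differences among these 6 libraries, possibly technical ones.

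Cells make cholesterol from acetyl-CoA through the mevalonate pathway, and the membrane-bound transcription factors SREBP1 and SREBP2 (genes Srebf1 and Srebf2) switch the pathway on when sterols in the endoplasmic reticulum run low. The escort protein Scap carries SREBP to the Golgi for cleavage, whereas Insig proteins hold Scap and SREBP back when sterols are plentiful. SREBP2 acts mainly on sterol genes and SREBP1 mainly on fatty acid genes, while the oxysterol receptors LXR alpha and LXR beta (Nr1h3 and Nr1h2) drive cholesterol export genes such as Abca1. Stromal cells of fat rely on both routes for membrane lipid, and fat cells that arise from them also store the fatty acids.

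TPM, the unit of all levels, corrects each gene for its length and adds up to 1000000 in each library. TPM keeps no sequencing depth, so depth is unknown here and no interval for counting error is given. Differences are log2 fold changes of TPM + 1, Treg co-culture minus control, a scale that understates the change of low genes, from limma with standard errors (SE), and a gene was called when its Benjamini-Hochberg adjusted p over 12405 genes tested was below 0.05. The genes tested had a mean of at least 1 TPM, and 34 of the 35 members passed this filter. In bulk RNA of this kind, fewer cells of a type and less RNA per cell cannot be told apart.

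The labelled cell type was checked against 10 stromal markers, which were all above 6 TPM in every library, led by Col1a1 and Vim. Of these 10, 5 were called lower and 3 higher, against 18.0% lower and 19.8% higher among all genes tested. The largest differences each way were those of Pdgfra (log2 fold change -0.45, SE 0.03, limma adjusted p = 1.92e-06) and Cd44 (0.58, SE 0.03, limma adjusted p = 6.08e-07). Of 12 T cell markers, 7, including Cd3e, Cd3d, Cd3g and Cd4, were listed at 0 in all 6 libraries, and the list summed to 4.05 to 4.47 TPM in co-culture libraries and 3.38 to 4.24 TPM in controls, mostly Ikzf2 and Lck. Adipocyte markers summed to 73.9 to 79.8 TPM after co-culture and 98.3 to 112 TPM in controls, mostly Fabp4, and 2 of the 9 (Lep and Ucp1) were listed at 0 throughout. Of the 5 adipocyte markers tested, 4 were called lower and none higher, against 18.0% lower and 19.8% higher among all genes tested. Macrophage markers summed to 64.1 to 75.3 TPM after co-culture and 88.6 to 96.2 TPM in controls, mostly Lyz2. Of these 8 markers 6 were tested, and Lyz2 was the 1 called (lower). The part of these 2 lists in the lower levels of sterol genes was not tested. Treg co-culture 1 stood apart in hepatocyte markers, which summed to 132 TPM there, against 2.26 and 2.85 TPM in the other co-culture libraries and 1.62 to 4.05 TPM in controls, and in cardiomyocyte markers (24.6 TPM, against 0.80 and 1.72 TPM in the other co-culture libraries and 0.29 to 1.45 TPM in controls). Without that library 14 of the 35 members were called lower and 1 higher, against 16 lower and 1 higher with it. Among all genes tested without it, 1877 of 12385 were called lower and 2116 higher. With it these counts were 2234 (18.0%) and 2454 (19.8%) of 12405. Of the 18 sterol enzymes 10 were called lower without that library and 12 with it.

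Most sterol enzymes were lower after Treg co-culture, while the fatty acid enzymes were close to their control level. Of the 18 sterol enzymes, 12 were called lower and none higher, against 18.0% lower and 19.8% higher among all genes tested. Their median log2 fold change was -0.22, beside 0.0015 over all genes tested. Of the 6 fatty acid enzymes none was called lower and 1, Scd1, was called higher, with a median of 0.02. Over all 35 members 17 were called, 16 lower and 1 higher, against 37.8% in either direction among all genes tested. The libraries of the groups did not overlap in 18 members that were lower and 1 that was higher, against 49.3% of all genes tested (24.0% lower and 25.3% higher). In the 16 members called lower no co-culture library reached the lowest control library. A call made on the same libraries favours such a gap, so it adds no support for the fall. Relative to the control mean, the TPM of Fdps fell by 7.95% and that of Abca1 fell by 33.6%, the extremes of these 16.

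**Figure D1:**
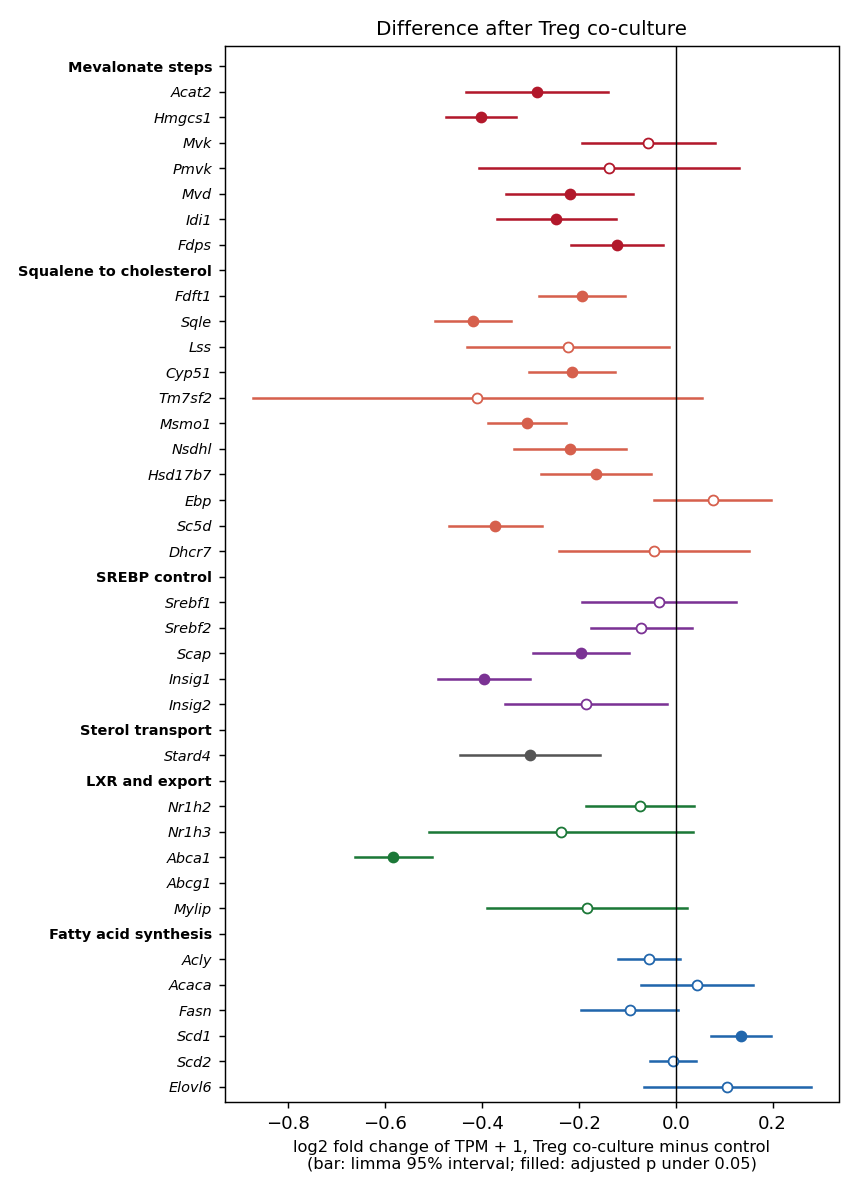
Log2 fold change of TPM + 1 (x axis, Treg co-culture minus control) of each member tested, by role, with limma 95% intervals as bars and filled points for members called at an adjusted p below 0.05. The filled points of the mevalonate and squalene steps lie between -0.42 and -0.12, and the fatty acid enzymes lie on either side of 0; Abcg1 was below the filter and has no point.

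Summed over the group, the 18 sterol enzymes took 1015, 1008 and 1007 TPM in Treg co-culture 1 to 3, against 1224, 1183 and 1206 TPM in controls 1 to 3. The groups did not overlap, and the summed level was 1010.0 ± 4.04 TPM after co-culture and 1204 ± 20.6 TPM in controls (mean ± SD, n = 3 each), a difference of -16.1% that was not tested. The 6 fatty acid enzymes summed to 864, 849.8 and 851 TPM in the co-culture libraries and 847, 847 and 856 TPM in the control libraries, ranges that overlapped. The 5 genes of LXR and export summed to 135, 134 and 136 TPM after co-culture, against 167, 172 and 173 TPM in controls. The means differed by -20.9%, which was not tested, and most of that gap was Abca1. The differences between these sums were not tested against each other.

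**Figure D2:**
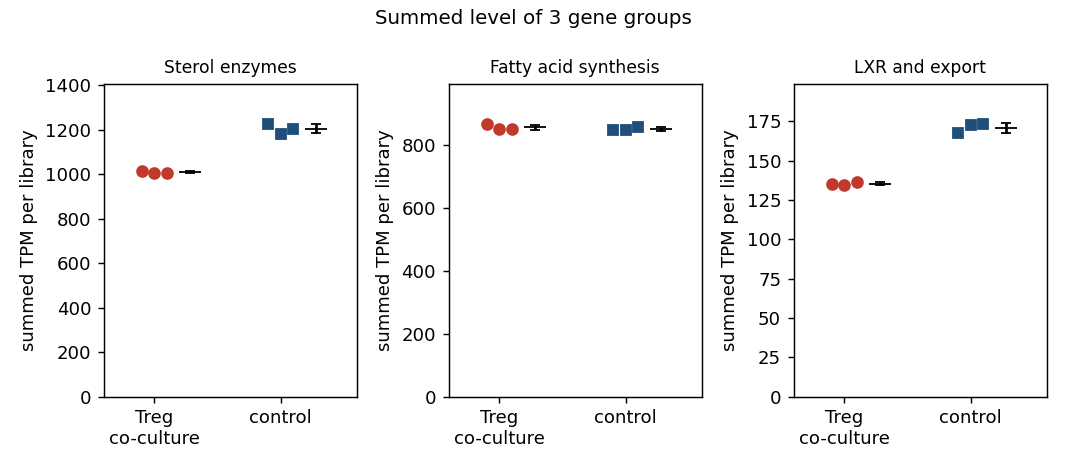
Summed TPM per library (y axis from 0) of the sterol enzymes, the fatty acid enzymes and the LXR and export genes, with Treg co-culture libraries as circles, control libraries as squares and the mean ± SD beside them. The sterol sum lies near 1010 TPM in the co-culture libraries and near 1204 TPM in controls, and the fatty acid sums overlap.

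Promoters of sterol genes are known for short motifs that bind SREBP and the factors acting with it, and 28 of the 35 members had a promoter (250 bases before to 50 after a start) in the RefSeq table of build GRCm38.p6. The full sterol regulatory element was searched on both strands as a fixed string of 10 letters. Sites that differ from this string by a letter were not counted, so a missing match does not show that a promoter lacks the element. The string was found in 0 of these 28 members and in 0.0999% of all 27025 genes with a promoter. A shorter core, TCACNCCA, likewise searched on both strands and added after that result was seen, lies within the letters of the full element and was found in 3 members (Hmgcs1, Msmo1 and Srebf2) and in 4.97% of all genes. The CCAAT box, searched as ATTGG on both strands, was present in 14 of the 15 sterol enzymes with a promoter and in 2 of 4 fatty acid enzymes, against 41.1% of all genes. The GC box GGGCGG was present in 14 of the same 15 sterol enzymes and in 1 of the 4 fatty acid enzymes, against 38.2% of all genes. The member promoters are also richer in G and C than the rest (median 62.3%, against 52.7% over all promoters). Among members with a promoter, the CCAAT box was found in 9 of the 12 called lower and in 12 of the 16 others, and the GC box in 12 of 12 and in 10 of 16. These 12 are not the 12 sterol enzymes called lower, as they include Scap, Insig1 and Abca1. The palindromic E box CACGTG was found in 5 of the 12 members called lower and in 1 of the 16 others, against 8.09% of all genes. By role, it was present in 3 of the 15 sterol enzymes and in 0 of the 4 fatty acid enzymes. These splits by call and by role rest on few genes and were not tested. A match of letters is a description of the window and not a binding site.

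The 250 bases before the start are shown for the 3 members that hold the core, of which Hmgcs1 and Msmo1 were called lower and Srebf2 was not. Capitals mark the core (8 letters, on the gene's strand in all 3) and each CCAAT box (5 letters, either strand). The core begins 137 bases before the start in Hmgcs1 (chr13:119690101-119690350, plus strand), 177 in Msmo1 (chr8:64733579-64733828, minus strand) and 162 in Srebf2 (chr15:82147019-82147268, plus strand).
Hmgcs1: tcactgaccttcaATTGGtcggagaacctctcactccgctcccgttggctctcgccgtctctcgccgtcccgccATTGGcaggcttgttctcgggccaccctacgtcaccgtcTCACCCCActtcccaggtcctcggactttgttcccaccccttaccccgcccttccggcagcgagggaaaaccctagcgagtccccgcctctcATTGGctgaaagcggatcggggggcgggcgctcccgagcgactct
Msmo1: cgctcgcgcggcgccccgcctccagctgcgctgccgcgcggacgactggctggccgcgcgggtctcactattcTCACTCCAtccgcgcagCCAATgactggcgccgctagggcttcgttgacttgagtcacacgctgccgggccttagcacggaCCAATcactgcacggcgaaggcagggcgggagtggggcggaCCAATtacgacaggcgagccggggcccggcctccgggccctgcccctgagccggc
Srebf2: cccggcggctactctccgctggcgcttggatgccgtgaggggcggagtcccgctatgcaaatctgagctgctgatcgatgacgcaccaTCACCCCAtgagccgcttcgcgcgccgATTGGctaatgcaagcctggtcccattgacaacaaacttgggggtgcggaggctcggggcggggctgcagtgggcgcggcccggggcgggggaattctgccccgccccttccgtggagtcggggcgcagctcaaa
The CCAAT box nearest to the core begins 176 bases before the start in Hmgcs1, 160 in Msmo1 and 135 in Srebf2. Hmgcs1 and Msmo1 hold 3 such boxes in this window and Srebf2 holds 1.

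The mevalonate steps were lower as far as they passed the test, with the largest fall in HMG-CoA synthase. Hmgcs1, which makes the HMG-CoA from which mevalonate is formed, stood at 124, 129 and 127 TPM in Treg co-culture 1 to 3 and at 168, 163 and 172 TPM in controls 1 to 3. The highest co-culture library lay well under the lowest control, which gave a log2 fold change of -0.40, SE 0.03, limma adjusted p = 7.1e-06. Acat2, the thiolase that joins the first acetyl units, had 39.7, 34.7 and 36.4 TPM after co-culture, against 48.1, 45.8 and 41.9 TPM in controls. Its groups did not overlap, with control 3 nearest to the co-culture libraries (-0.29, SE 0.07, limma adjusted p = 0.00642). Idi1, the isomerase that balances the isoprene units, had 80.9, 78.2 and 77.3 TPM in co-culture libraries and 103, 88.6 and 90.1 TPM in controls. Control 1 stood highest of the 6 libraries, and the other controls were also above every co-culture library (-0.25, SE 0.06, limma adjusted p = 0.00559). Mvd, which removes carbon dioxide to form the first isoprene unit, averaged 23.1 ± 1.21 TPM after co-culture and 27.0 ± 0.738 TPM in controls (-0.22, SE 0.06, limma adjusted p = 0.0145). Fdps, which builds farnesyl diphosphate, had 152, 141 and 159 TPM in co-culture libraries and 161, 164 and 166 TPM in controls, and its fall was the smallest of the called members (-0.12, SE 0.04, limma adjusted p = 0.0482).

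The kinases of the route were not called. Mvk, which phosphorylates mevalonate, had 33.8, 30.5 and 30.4 TPM after co-culture and 31.0, 33.0 and 34.5 TPM in controls, with overlapping groups and a log2 fold change of -0.06, 95% interval -0.19 to 0.08, limma adjusted p = 0.512. Pmvk, which adds the next phosphate, had 18.5, 17.044 and 14.9 TPM after co-culture and 20.6, 15.0 and 20.5 TPM in controls, and control 2 alone stood among the co-culture values (-0.14, 95% interval -0.41 to 0.13, limma adjusted p = 0.401). Without control 2, Pmvk was called (log2 fold change -0.28, limma adjusted p = 0.0474). Of the 7 mevalonate genes 5 were called lower, against 18.0% of all genes tested, and 3 without Treg co-culture 1, where Mvd (log2 fold change -0.19, limma adjusted p = 0.0564) and Fdps (log2 fold change -0.13, limma adjusted p = 0.0727) missed the threshold. The call of Fdps was also lost without Treg co-culture 2 (0.156), control 1 (0.0621), control 2 (0.107) or control 3 (0.129), with no filter (0.0878) and without the mean-variance trend (0.143), all given as limma adjusted p.

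From squalene onward 7 of 11 enzymes were called lower, against 18.0% of all genes tested, led by the flux-controlling epoxidase. Sqle, squalene epoxidase, had 75.9, 76.6 and 76.6 TPM in Treg co-culture 1 to 3 and 100.7, 100.7 and 106 TPM in controls 1 to 3. The co-culture libraries were nearly equal and all far under the controls (-0.42, SE 0.04, limma adjusted p = 1.07e-05). Sc5d, the desaturase near the end of the route, had 68.9, 76.4 and 72.5 TPM after co-culture and 93.8, 95.8 and 92.9 TPM in controls, again with clear separation (-0.37, SE 0.04, limma adjusted p = 8.99e-05). Msmo1, the methylsterol oxidase, had 109, 110.0 and 109 TPM in the co-culture libraries, against 141, 131 and 134 TPM in controls (-0.31, SE 0.04, limma adjusted p = 9.5e-05). Nsdhl and Hsd17b7 act with Msmo1 in stripping methyl groups from the sterol ring, and both were lower. Nsdhl had 32.5, 33.0 and 32.9 TPM after co-culture and 40.3, 38.4 and 36.4 TPM in controls (-0.22, SE 0.05, limma adjusted p = 0.00772). Hsd17b7 had 33.6, 31.3 and 33.4 TPM after co-culture and 37.966, 36.4 and 36.1 TPM in controls (-0.16, SE 0.05, limma adjusted p = 0.0275).

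Fdft1, squalene synthase and the first enzyme committed to sterols, averaged 57.9 ± 1.43 TPM in co-culture libraries and 66.3 ± 1.36 TPM in controls (-0.19, SE 0.04, limma adjusted p = 0.00362). Cyp51, the lanosterol demethylase, averaged 87.0 ± 1.52 TPM after co-culture and 101.1 ± 4.43 TPM in controls (-0.21, SE 0.04, limma adjusted p = 0.00199). Both fell by less than Sqle, Sc5d and Msmo1, with no overlap between groups. The enzymes that were not called sat among and around these steps. Lss, which closes the sterol rings, had 16.9, 18.6 and 15.8 TPM after co-culture and 22.9, 19.5 and 18.008 TPM in controls, with the groups overlapping by control 3 (-0.22, 95% interval -0.43 to -0.01, limma adjusted p = 0.0872). It was called without control 3 (log2 fold change -0.30, limma adjusted p = 0.0405). Tm7sf2, a sterol reductase, was the lowest of the 18 enzymes at 5.74, 5.45 and 3.35 TPM in co-culture libraries and 5.23, 9.26 and 5.93 TPM in controls, and had the widest interval (-0.41, 95% interval -0.87 to 0.05, limma adjusted p = 0.151).

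Ebp, the sterol isomerase, was the 1 sterol enzyme whose estimate lay above 0, at 33.9, 36.1 and 35.7 TPM after co-culture and 33.5, 31.7 and 34.974 TPM in controls (0.08, 95% interval -0.04 to 0.20, limma adjusted p = 0.299). Dhcr7, the reductase that forms cholesterol itself, had 21.2, 18.7 and 19.7 TPM after co-culture and 17.8, 21.9 and 22.0 TPM in controls, where control 1 stood lowest of the 6 libraries (-0.04, 95% interval -0.24 to 0.15, limma adjusted p = 0.726). The 6 sterol enzymes that were not called had control means of 6.81 to 33.4 TPM and SE of 0.05 to 0.21, and the 12 that were called had control means of 27.0 to 168 TPM and SE of 0.03 to 0.07. The call of Hsd17b7 was lost without Treg co-culture 2 (log2 fold change -0.13, limma adjusted p = 0.0965), without control 1 (0.0806) and without control 2 (0.0538).

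**Figure D3:**
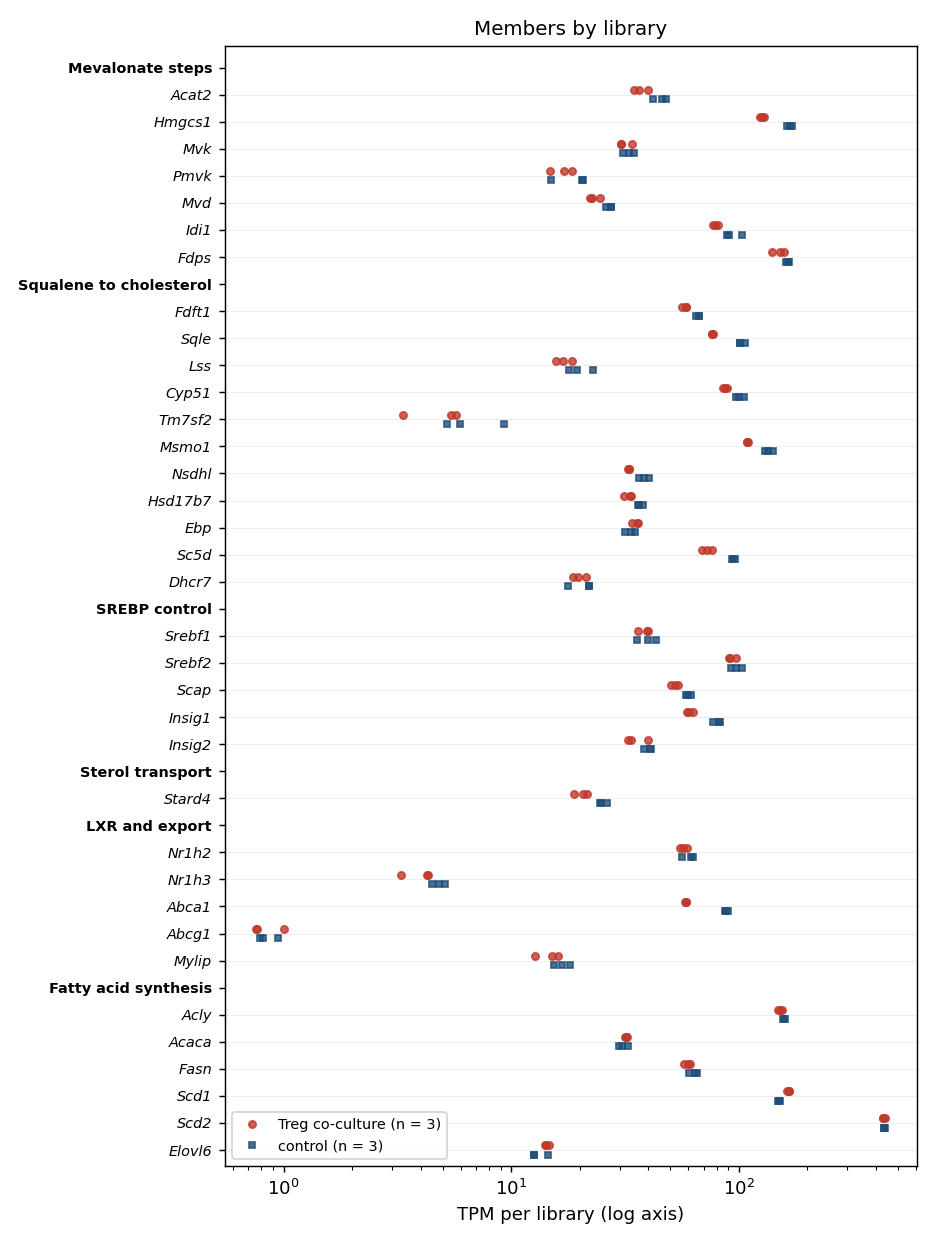
TPM per library (x axis, log scale) of all 35 members by role, with the 3 Treg co-culture libraries as red circles above and the 3 control libraries as blue squares below on each row. The clearest gaps are those of Hmgcs1, Sqle, Sc5d, Insig1 and Abca1, and the rows of Scd2, Acaca and Srebf1 overlap.

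Among the regulators of the pathway the Insig1 and Scap transcripts were lower, while those of the SREBP genes themselves were not called. Insig1, a retention factor and itself a well-known SREBP target, had 59.1, 62.9 and 60.6 TPM in Treg co-culture 1 to 3 and 81.7, 77.1 and 82.4 TPM in controls 1 to 3. The groups stood clearly apart (-0.40, SE 0.04, limma adjusted p = 5.49e-05), and the fall was close in size to those of Hmgcs1 and Sqle. Scap, the SREBP escort, had 54.1, 52.3 and 50.3 TPM after co-culture and 58.4, 61.9 and 59.7 TPM in controls (-0.20, SE 0.04, limma adjusted p = 0.00607). Insig2, the related retention factor, had 32.5, 40.1 and 33.6 TPM after co-culture and 40.9, 38.4 and 41.3 TPM in controls. Treg co-culture 2 stood among the controls, the other co-culture libraries below them (-0.19, 95% interval -0.35 to -0.02, limma adjusted p = 0.0777), and leaving out Treg co-culture 2 brought the call (log2 fold change -0.28, limma adjusted p = 0.00616).

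Srebf2 had 90.2, 97.3 and 91.2 TPM in co-culture libraries and 92.7, 103 and 97.3 TPM in controls. Its groups overlapped, and the difference of -0.07, 95% interval -0.17 to 0.03, limma adjusted p = 0.264 leaves room for a fall of the size seen in Fdps but not of that in Sqle. Srebf1 had 36.0, 39.6 and 40.1 TPM after co-culture and 35.7, 43.2 and 39.8 TPM in controls, again with overlap (-0.03, 95% interval -0.19 to 0.12, limma adjusted p = 0.742). Of these 5 regulators 2 were called lower, beside 18.0% of all genes tested, and all 5 estimates lay below 0 (median -0.19). These transcript levels do not show how much SREBP protein was cleaved. Stard4, a carrier that moves sterol between membranes and is also an SREBP target, had 20.6, 21.5 and 18.9 TPM after co-culture and 24.6, 26.5 and 24.8 TPM in controls, with all co-culture libraries lower (-0.30, SE 0.07, limma adjusted p = 0.00459).

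Abca1, the transporter that loads cholesterol onto lipid-poor apolipoproteins, showed the largest fall of any member. It had 58.7, 58.1 and 58.9 TPM in Treg co-culture 1 to 3 and 89.7, 86.8 and 88.1 TPM in controls 1 to 3. Each group was tight and the groups lay far apart, a log2 fold change of -0.58, SE 0.04, limma adjusted p = 1.03e-06 and a 1.51-fold lower mean. The LXR receptors were not called. Nr1h2, LXR beta, had 59.3, 55.2 and 57.1 TPM after co-culture and 56.5, 61.5 and 62.9 TPM in controls (-0.07, 95% interval -0.19 to 0.04, limma adjusted p = 0.279). Nr1h3, LXR alpha, was scarce at 3.28, 4.26 and 4.30 TPM after co-culture and 4.84, 5.12 and 4.47 TPM in controls, with groups that did not overlap but a wide interval (-0.24, 95% interval -0.51 to 0.03, limma adjusted p = 0.155).

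The other LXR targets of the set did not pass the test. Mylip, a ubiquitin ligase that removes lipoprotein receptors from the cell surface, had 12.8, 16.1 and 15.1 TPM after co-culture and 15.4, 18.1 and 16.7 TPM in controls (-0.18, 95% interval -0.39 to 0.02, limma adjusted p = 0.151). Abcg1, which exports cholesterol to high-density lipoprotein, stood below the filter at 1.00, 0.767 and 0.758 TPM after co-culture and 0.788, 0.946 and 0.815 TPM in controls, overlapping throughout. Thus 1 of the 4 genes tested in this group was called lower, beside 18.0% of all genes tested. All 4 estimates lay below 0, with a median of -0.21.

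The fatty acid enzymes differed little between the groups, and Scd1 was the 1 that passed the test. Acly, which makes cytosolic acetyl-CoA from citrate and so feeds both routes, had 154, 151 and 149 TPM in Treg co-culture 1 to 3 and 159, 156 and 158 TPM in controls 1 to 3. All co-culture libraries were lower, but by little (-0.06, 95% interval -0.12 to 0.0088, limma adjusted p = 0.160), and the fall was called under quantile normalization (log2 fold change -0.09, limma adjusted p = 0.0337). Acaca, the carboxylase that makes malonyl-CoA, had 31.9, 32.4 and 31.7 TPM after co-culture and 32.6, 29.8 and 30.7 TPM in controls (0.04, 95% interval -0.07 to 0.16, limma adjusted p = 0.538). Fasn, fatty acid synthase, had 59.5, 57.6 and 60.8 TPM after co-culture and 60.3, 64.5 and 65.5 TPM in controls, with control 1 inside the co-culture range (-0.09, 95% interval -0.20 to 0.0057, limma adjusted p = 0.127). It was called lower without control 1 (log2 fold change -0.13, limma adjusted p = 0.0484).

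Of the desaturases Scd1 was higher and Scd2 was not called, and the difference between them was not tested. Scd1, which puts the double bond into saturated acyl chains, had 166, 162 and 166 TPM in co-culture libraries and 150.4, 151 and 148 TPM in controls. Every co-culture library was above every control, and the rise was small with a narrow error (0.13, SE 0.03, limma adjusted p = 0.00376). Its close relative Scd2, the most abundant of the 35 genes, had 439, 432 and 429 TPM after co-culture and 432, 434 and 439 TPM in controls, and the overlapping groups gave -0.0059, 95% interval -0.05 to 0.04, limma adjusted p = 0.856. Elovl6, which lengthens the chain made by Fasn, had 14.1, 14.7 and 14.2 TPM after co-culture and 12.5, 12.6 and 14.6 TPM in controls (0.11, 95% interval -0.07 to 0.28, limma adjusted p = 0.309). The intervals of all fatty acid members other than Scd1 include 0, and those of Acaca and Elovl6 also hold a rise of the size seen in Scd1. The sources used here do not say how reads were divided between the similar Scd genes, so their values are uncertain to that extent.

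**Figure D4:**
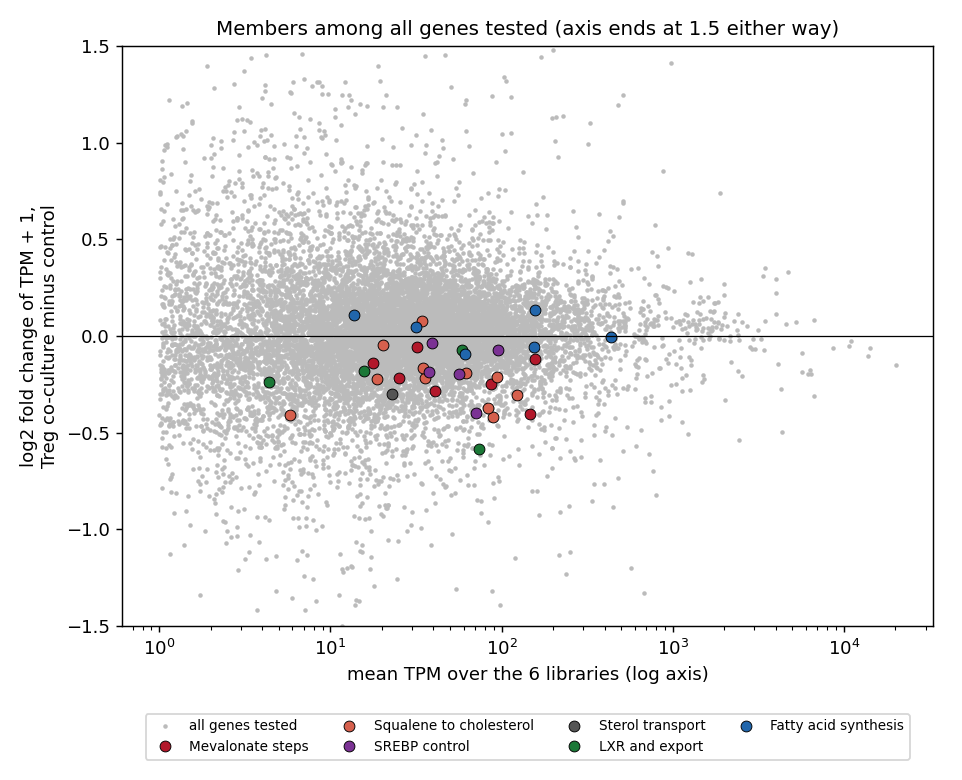
Log2 fold change of TPM + 1 (y axis, Treg co-culture minus control) against mean TPM over the 6 libraries (x axis, log scale) for all 12405 genes tested in grey and the members tested in colour by role. The axis ends at 1.5 in either direction and leaves out 32 genes; 30 of the 34 members tested lie below 0, against 49.7% of all genes.

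Other genes of lipid metabolism, in 6 lists, were called in both directions, as were 18.0% (lower) and 19.8% (higher) of all genes tested. Of 12 further isoprenoid and sterol genes tested, 3 (25.0%) were called lower and 2 (16.7%) higher, near those shares. Pdss1 and Pdss2 encode the subunits of the enzyme that makes the ubiquinone tail, and they went opposite ways. Pdss1 averaged 8.90 ± 0.492 TPM after co-culture and 6.24 ± 0.949 TPM in controls (0.46, SE 0.11, limma adjusted p = 0.00875), and Pdss2 5.12 ± 0.962 TPM after co-culture and 8.29 ± 1.88 TPM in controls (-0.60, SE 0.16, limma adjusted p = 0.0142). The Pdss2 call was lost without Treg co-culture 2 (limma adjusted p = 0.0518) or control 3 (0.0512). Lbr, the lamin B receptor with the same sterol reductase activity as Tm7sf2, was higher at 26.3 ± 0.806 TPM after co-culture and 22.3 ± 1.07 TPM in controls (0.23, SE 0.06, limma adjusted p = 0.0120). Hsd3b7, an enzyme of bile acid synthesis, was lower (-0.20, SE 0.05, limma adjusted p = 0.0136) and missed the threshold without Treg co-culture 1 (0.0501).

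Of 14 other genes around SREBP processing and turnover, 3 (21.4%) were called lower and 2 (14.3%) higher, near the 18.0% and 19.8% of all genes tested. Fbxw7, the ubiquitin ligase subunit that marks nuclear SREBP for degradation, was lower (-0.33, SE 0.09, limma adjusted p = 0.0118). Rnf145, a sterol-responsive ubiquitin ligase, was also lower (-0.18, SE 0.05, limma adjusted p = 0.0197), but lost its call without Treg co-culture 1 (adjusted p = 0.0745), control 1 (0.0621) or control 2 (0.0504) and without the trend (0.0506). The chaperone Hsp90b1 was higher (0.20, SE 0.02, limma adjusted p = 2.56e-05). The count of 5 calls was 3 without Treg co-culture 1, Treg co-culture 3, control 1 or control 2.

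Of 24 other fatty acid genes tested, 6 were called lower and 6 higher, 25.0% each way against 18.0% lower and 19.8% higher among all genes tested, and the median was 0.03. Acsl4, an acyl-CoA synthetase that prefers arachidonate, averaged 71.5 ± 2.47 TPM after co-culture and 54.1 ± 1.04 TPM in controls (0.39, SE 0.04, limma adjusted p = 4.57e-05). Fads3 of the desaturase family was higher (0.22, SE 0.03, limma adjusted p = 0.00034). Hacd4, of the dehydratase family that serves chain elongation, was lower (-0.41, SE 0.05, limma adjusted p = 0.000201), as was Slc25a1 (-0.20, SE 0.03, limma adjusted p = 0.000678), the carrier that brings citrate out of mitochondria for Acly. Among 13 glycerolipid genes 3 were called lower and 1 higher, against the same 18.0% and 19.8%, and 2 were lower with the batch as a replicate block. Of the phosphatidate phosphatases 1 was lower, 1 higher and Lpin2, named after its value was seen, was not called (-0.0056, 95% interval -0.19 to 0.18, limma adjusted p = 0.966). Lpin1 averaged 12.2 ± 1.07 TPM after co-culture and 20.2 ± 1.27 TPM in controls (-0.68, SE 0.08, limma adjusted p = 0.000105), while Lpin3 averaged 10.7 ± 0.829 TPM after co-culture and 7.46 ± 0.623 TPM in controls (0.47, SE 0.09, limma adjusted p = 0.00276). The lipid droplet coat gene Plin3 was lower (-0.19, SE 0.04, limma adjusted p = 0.00609).

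Of 12 genes of cholesterol uptake and esterification, 3 were called lower and 3 higher, 25.0% each way against 18.0% lower and 19.8% higher among all genes tested. With the batch as a replicate block 3 were lower and 2 higher. Npc2 and Lipa, which free and hand on cholesterol in lysosomes, were lower. Npc2 averaged 284 ± 0.325 TPM after co-culture and 339.8 ± 7.36 TPM in controls (-0.26, SE 0.02, limma adjusted p = 2.47e-05), and Lipa 63.6 ± 4.39 TPM after co-culture and 76.3 ± 3.23 TPM in controls (-0.26, SE 0.05, limma adjusted p = 0.00382). Soat1, which esterifies cholesterol for storage, was higher at 79.7 ± 0.919 TPM after co-culture and 60.5 ± 2.52 TPM in controls (0.39, SE 0.04, limma adjusted p = 4.47e-05), as was the lysosomal membrane protein gene Scarb2 (0.39, SE 0.03, limma adjusted p = 7.07e-06).

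Of 12 other LXR and oxysterol genes tested, 5 were called lower and 2 higher, against 18.0% lower and 19.8% higher among all genes tested. The lower count was 4 without any 1 of the 6 libraries, with the batch as a replicate block and without the mean-variance trend. Pltp, a phospholipid transfer protein gene and LXR target, had 35.2, 34.9 and 34.0 TPM in co-culture libraries and 58.1, 59.3 and 63.2 TPM in controls (-0.78, SE 0.05, limma adjusted p = 1e-06). Smpdl3a, reported as LXR-responsive in human macrophages, was lower (-0.70, SE 0.09, limma adjusted p = 0.00022), whereas the LXR-responsive small GTPase gene Arl4c was higher (0.65, SE 0.06, limma adjusted p = 3.26e-05). Ch25h, whose product makes an oxysterol that holds SREBP in the endoplasmic reticulum, had 21.1, 23.0 and 18.5 TPM after co-culture and 11.4, 11.4 and 13.999 TPM in controls, with every co-culture library above every control (0.72, SE 0.10, limma adjusted p = 0.0003). LXR targets thus included called genes in both directions.

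**Figure D5:**
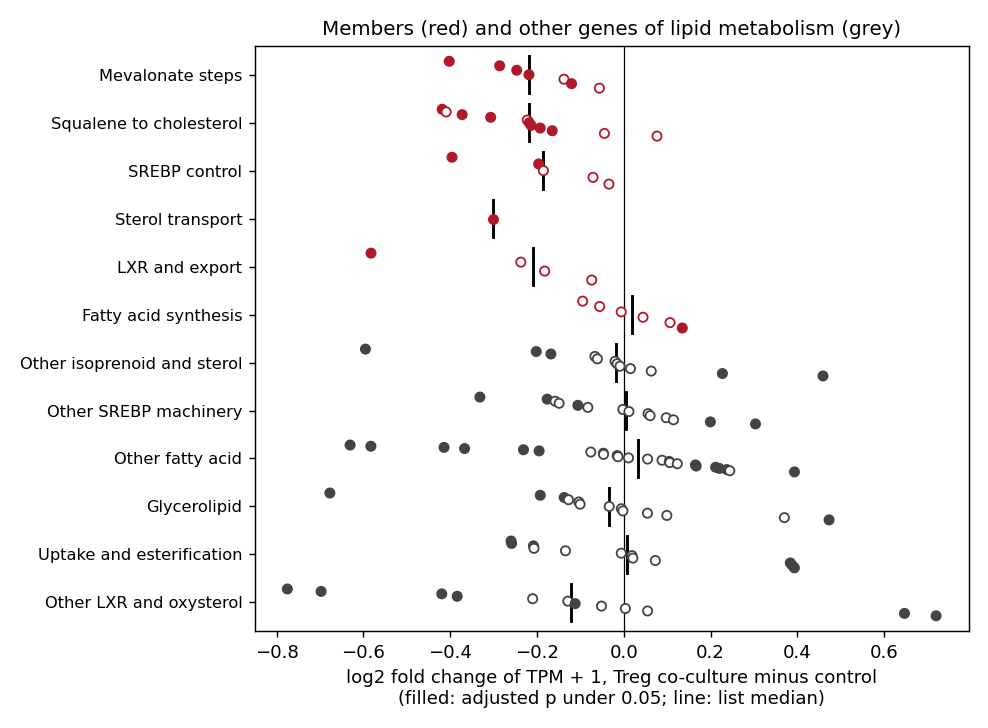
Log2 fold change of TPM + 1 (x axis, Treg co-culture minus control) of every gene tested in the 6 member groups (red) and the 6 lists of other lipid genes (grey), with filled points for called genes and a line at each list's median. The medians of the mevalonate and squalene groups lie at -0.22, of SREBP control at -0.19 and of LXR and export at -0.21. That of the fatty acid group lies at 0.02 and those of the 6 other lists between -0.12 and 0.03.

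Some members share exon bases with another gene in GENCODE M21 (GRCm38), and the sources used here do not say whether strand was used in counting. Fdft1 shares 774 exon bases with Ctsb on the opposite strand, which was itself slightly lower (log2 fold change -0.08, limma adjusted p = 0.00995). Cyp51 shares 166 with Akap9 and Srebf1 109 with Rai1, neither partner being called, and Tm7sf2 shares 532 with Vps51 on the same strand, which was higher (0.24, adjusted p = 0.0291). Fdps shares 1124 exon bases with the unnamed gene model Gm43738 on its own strand. Hmgcs1, Idi1, Lss, Scap and Elovl6 each overlap an unnamed or antisense model that was not among the genes tested. The values of these genes are uncertain to that extent.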

How the data were processed

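Per the labels' protocols, bead-captured messenger RNA of wild-type mouse ADSCs was sequenced, 3 from Treg co-culture and 3 controls, and the groups and batch numbers were taken from the labels. The values used are TPM from 1 table deposited by the authors, with 22186 genes in 6 libraries, per its header and column sums of 1000000. The submitters' processing notes list the genome builds GRCm38, mm10 and GRCm39 without saying which was used for what, and neither aligner nor annotation was given in the sources used here. Gene numbers were paired with symbols through RefSeq (21992 of 22186, 99.1%), used for names only.

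Genes averaging 1 TPM or more were tested on log2(TPM + 1) with limma 3.58.1 (R 4.3.3; lmFit, eBayes with trend, no covariate), with Benjamini-Hochberg adjustment over all 12405 genes and a threshold of 0.05. The script was tested on simulated data. Tables and plots used Python 3.11.15, pandas 2.3.3 and matplotlib 3.10.9. Lists were described by counts and medians only. The labels number batches 1 to 3 in both groups, so same-numbered libraries were taken as sharing a batch. Their deviations from the group means over genes correlated at r = 0.01, -0.01 and 0.004, against -0.06 to 0.07 for different numbers, and the batch entered as a block in an alternative. Other alternatives were a pseudocount of 0.1, no filter, a 5 TPM filter, median-of-ratios scaling, quantile normalization, no trend and leaving out each library.

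The members and lists were chosen with earlier results of these data known. All 35 members are named; of each other list, up to 2 genes per direction with the lowest adjusted p among those called, and of each marker list up to 2 with the highest mean TPM, were to be named, and further markers named here were chosen after their values were seen. A gene that this rule selects is not reported here. Promoters are from RefSeq (GRCm38.p6; 28 of 35 members had one; Fdps, Fdft1, Sqle, Stard4, Abcg1, Scd1 and Scd2 did not match). Promoters that match the fixed string of the full sterol element were to be shown, but no member matched it, and the core TCACNCCA was chosen after that was seen.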

Additional observations from a re-analysis of the deposited data

How the results depend on the processing

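Over all 35 members, 17 genes were called, and 15 to 18 under every alternative run, always with 1 higher. Among all genes tested, 4688 of 12405 were called, and 3977 to 4692 under the alternatives, with 10458 to 16952 tested. Without 1 library the member count was 15 to 17, against 3977 to 4218 among all genes tested. With the batch as a replicate block it was 17 as well (limma), and the block changed no call among the members. Among the other lipid genes the block ended 3 calls: the lower counts were 2 for glycerolipid and 4 for other LXR genes and the higher count was 2 for uptake and esterification, and the counts of the other 3 lists did not move. Of 221 values of the 17 called members under alternatives, 210 kept their call, 11 lost it and 0 reversed. All lost calls were those of Mvd, Fdps and Hsd17b7. The mevalonate count was 3 to 5 when 1 library was left out. The fatty acid count was 2 under quantile normalization and 1 to 2 when 1 library was left out. The count of other SREBP genes was 3 without the mean-variance trend and 3 to 6 when 1 library was left out. The cause of these shifts was not tested. Pmvk, Lss, Insig2 and Fasn gained a call when the library that overlapped the other group was left out. Leaving out such a library favours a call, so these gains add no support for a fall. Estimates near 0 changed sign when 1 library was left out, none of them called: Dhcr7 ranged from -0.14 to 0.0048, Srebf1 from -0.10 to 0.029 and Scd2 from -0.015 to 0.00072. TPM keeps no depth, so what depth limits could not be assessed, and Abcg1 was below the filter and not tested.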
